A study of Mus musculus with 6 samples.

Results

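The HOX, T-box and related homeobox transcription factors were examined in fibroblasts that had been isolated from mammary tumours of mice. The members were the gene symbols of the count table that match 10 family patterns: the HOX clusters A to D, the TBX, MEOX, MSX, DLX, LHX, ALX, PBX and MEIS families and the sine oculis homeobox genes. The patterns found 55 of 18197 symbols: 24 HOX genes, 10 T-box genes, 4 PBX, 3 MEIS, 2 MEOX, 2 MSX, 3 DLX and 2 LHX genes, 4 sine oculis homeobox genes and Alx4. All 55 had a single position in the GENCODE M21 annotation of GRCm38. Members that the table does not list were not analysed here.

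RNA-seq was made from 6 libraries of these cancer-associated fibroblasts, sorted by flow cytometry from C57BL/6 mice, 3 labelled WT and 3 labelled mPGES-1 KO. They are called WT-labelled and KO-labelled libraries hereafter. Every mouse carried tumours induced by the polyoma middle T oncogene (PyMT), the WT-labelled libraries included, and tumours were taken at 16 to 20 weeks. The promoter that drives the oncogene, the cells in which mPGES-1 was deleted and the markers of the sort were not stated in the labels. mPGES-1 is an enzyme that makes prostaglandin E2, and the comparison asks which transcripts differ between the genotypes. Total counts were 23013498 to 43648450 per library. Ptges, the gene of this enzyme, went against the labels: it stood at 31.9, 19.2 and 27.9 CPM in WT-labelled libraries and at 186.0, 136.5 and 128.5 CPM in KO-labelled ones (CPM, counts scaled to library size). A count per gene does not show whether a part of it was deleted, and the groups are therefore named by label throughout. Pericyte and smooth muscle markers summed to 3634 to 9272 CPM in the WT-labelled libraries and 250 to 523 CPM in KO-labelled ones, and 9 of 14 tested were called lower and 0 higher (adjusted p under 0.05 in edgeR). Luminal epithelial markers summed to 6966 to 13163 against 34900.5 to 51410 CPM, with 6 of 16 called higher and 0 lower. Of 13 fibroblast markers 1 was called lower and 1 higher in edgeR. Among the basal, endothelial, leukocyte, lymphocyte, adipocyte, muscle and Schwann cell markers, edgeR called 0 in either direction. DESeq2 called 6 of these (14.2% of all genes) and limma-voom 4 (11.9% of all genes). The basal sums were apart all the same, at 76.9 to 178 against 225 to 332 CPM. So were the Schwann cell sums, at 72.9 to 97.4 against 167 to 241 CPM, while the sums of the other lists named here overlapped. The summed fibroblast markers overlapped, at 10453 to 29441 and 7641 to 20240 CPM, and Pdgfra, a receptor used to mark fibroblasts, was at 88.9, 28.4 and 163 CPM against 151, 66.3 and 84.6 CPM.

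These genes encode DNA-binding proteins that set where in the body, and in which tissue layer, a cell belongs. HOX genes lie in clusters whose order along the chromosome follows their order of use along the body axis, and fibroblasts of adult tissues keep a HOX pattern that reflects their place of origin. PBX and MEIS proteins are homeodomain partners that bind DNA together with HOX proteins, and T-box factors act in limb, heart, mammary and vascular development.

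The proximal promoter sequences of Hoxa9, Hoxa10 and Meox2 are shown because these genes are among the 6 members with the smallest unadjusted p and their windows hold no annotated exon. They are from RefSeq on GRCm38.p6, in which 29 of the 55 members had an entry, and each runs 5′ to 3′ along the gene's strand from 250 bases to 1 base before a transcription start. Capitals mark a match to any of the motifs searched on both strands: TGACAG (the MEIS core), TGATNNAT (a PBX-HOX composite), TAATTA (a homeodomain core), GGTGTGA (a T-box core), TGACG (part of the cyclic AMP response element) and TATAAA (the TATA box).
Hoxa9, chr6:52227371-52227620, strand minus: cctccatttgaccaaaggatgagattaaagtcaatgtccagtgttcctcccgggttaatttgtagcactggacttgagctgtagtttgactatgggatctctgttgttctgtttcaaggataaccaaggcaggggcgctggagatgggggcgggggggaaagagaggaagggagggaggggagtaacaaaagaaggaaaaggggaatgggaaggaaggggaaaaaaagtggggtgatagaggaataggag
Hoxa10 first start, chr6:52240855-52241104, strand minus: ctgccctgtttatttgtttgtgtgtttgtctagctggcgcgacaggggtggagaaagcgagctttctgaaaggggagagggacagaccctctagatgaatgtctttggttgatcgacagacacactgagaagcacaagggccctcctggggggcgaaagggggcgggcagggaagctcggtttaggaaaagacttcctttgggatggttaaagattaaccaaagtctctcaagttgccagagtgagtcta
Hoxa10 second start, chr6:52234940-52235189, strand minus: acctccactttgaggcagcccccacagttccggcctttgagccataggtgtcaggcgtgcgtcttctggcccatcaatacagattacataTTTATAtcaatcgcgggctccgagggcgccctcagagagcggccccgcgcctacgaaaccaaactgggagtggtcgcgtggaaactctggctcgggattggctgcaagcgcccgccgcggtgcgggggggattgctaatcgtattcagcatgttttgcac
Meox2, chr12:37108290-37108539, strand plus: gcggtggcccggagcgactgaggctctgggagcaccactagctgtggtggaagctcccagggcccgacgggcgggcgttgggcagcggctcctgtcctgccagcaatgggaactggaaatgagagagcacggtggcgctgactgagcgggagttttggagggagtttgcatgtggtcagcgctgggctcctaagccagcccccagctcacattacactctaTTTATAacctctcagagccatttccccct
The window of Meox2 held TATAAA on the opposite strand, from 29 to 24 bases before the start, and the second window of Hoxa10 held it on the opposite strand from 160 to 155 bases before the start. In the Hoxa9 window and the first Hoxa10 window none of the 6 motifs was found. No matches overlapped in these windows. Among 32851 promoter windows of the same length, TGACAG occurred in 15.9%, TGATNNAT in 7.68%, TAATTA in 4.84%, GGTGTGA in 3.33%, TGACG in 17.8% and TATAAA in 12.4%. Of 32 windows of the members, 3, 2, 2, 1, 6 and 6 held them in that order. A match describes these letters and is not a site.

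The members were mostly lower in the KO-labelled libraries. The edgeR filter kept 49 members for the test, those that reached a minimum level in enough libraries. Of these, 4 fell and 0 rose at an adjusted p under 0.05 in edgeR's quasi-likelihood test: Tbx2, Meox2, Hoxa9 and Hoxc9. Across all 16543 genes tested, 2.76% were called, 1.56% lower and 1.2% higher, against 8.16% of the tested members. DESeq2 called 16 members (14 lower, 2 higher), where it called 14.2% of all genes, and limma-voom called 9 (8 lower, 1 higher), where it called 11.9%. The groups did not overlap, with every KO-labelled library below every WT-labelled library, in 23 of the 49, or 46.9%, where all genes gave 15.7%. The opposite separation was seen in 2 of the 49, Tbx15 among them, where all genes gave 12.2%. A negative log2 fold change was found in 43 of the 49, against 51.6% of all genes, and the median was -1.99 against -0.04. A low member can pass the filter through the group where it is high, so these counts describe the tested members only. Over all 55, the mean was lower in 46 and higher in 9. Of the 28 members with a mean of at least 5 CPM over all 6 libraries, 25 had a negative log2 fold change, 13 lay wholly below and 4 were called. Among all genes at that mean, 51.1% had a negative log2 fold change, 17.9% lay wholly below and 3.98% were called. The spread between libraries was wide, with a common biological coefficient of variation of 0.818. In bulk samples, fewer cells of a type and less RNA per cell cannot be told apart.

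**Figure D1:**
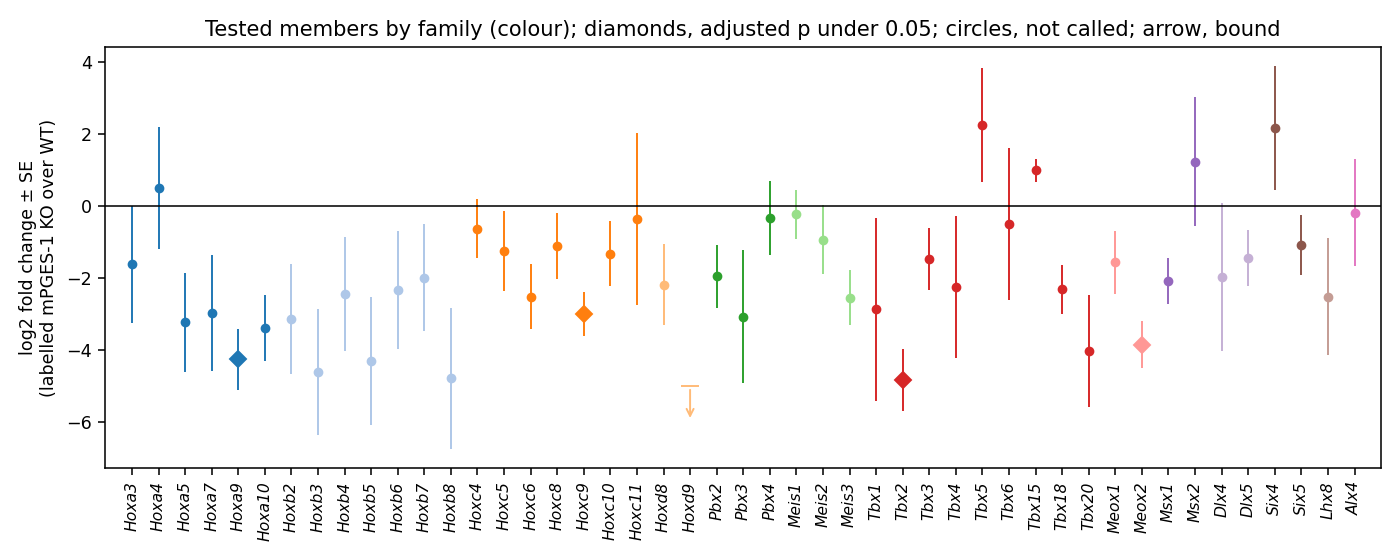
Log2 fold change with its standard error of 47 of the tested members, labelled mPGES-1 KO over labelled WT, coloured by family. The 4 diamonds (Hoxa9, Hoxc9, Tbx2 and Meox2) passed an adjusted p of 0.05, 42 members lie below 0, and the arrow starts at the bound of -5.003 for Hoxd9, for which KO-labelled libraries held no count.

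Among HOX genes, all 4 clusters had a lower mean sum in the KO-labelled libraries, and Hoxa9 and Hoxc9 passed the test. Of 22 tested HOX genes, 2 fell, 0 rose and 20 did not pass in edgeR, where 2.76% of all genes were called. A negative log2 fold change was found in 21 (51.6% of all genes), and 14 lay wholly below the WT-labelled libraries (15.7% of all genes). Summed over the 24 HOX genes, the level was 161, 242 and 220 CPM in the WT-labelled libraries, replicates 1 to 3, and 73.4, 21.5 and 38.7 CPM in KO-labelled ones. The means differed 4.66-fold (208 ± 41.6 against 44.5 ± 26.4 CPM, SD, n = 3).

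Both called HOX genes belong to paralog group 9. Hoxa9 was at 17.4, 20.2 and 11.5 CPM in the WT-labelled libraries and at 1.32, 0.964 and 0.283 CPM in KO-labelled ones. All 3 WT-labelled libraries lay above the others, with a log2 fold change of -4.26 ± 0.84 (SE, adjusted p = 0.0451 in edgeR). Hoxc9 was at 19.5, 28.8 and 39.9 CPM against 6.14, 2.05 and 2.72 CPM. Its groups were also apart, with a log2 fold change of -3.01 ± 0.61 (adjusted p = 0.0484 in edgeR). Hoxd9 was at 4.44, 2.54 and 3.29 CPM in the WT-labelled libraries and had no count in the other 3. Set at 3 counts in each of those libraries, Hoxd9 was at least 32.1-fold lower (adjusted p = 0.0681 in edgeR, not called), a bound that covers counting error only. DESeq2 (adjusted p = 4.32e-05) and limma-voom (0.0152) called Hoxd9. Some, not all, of the group 9 HOX genes are known to act together in the development of the mouse mammary gland. In GRCm38 Hoxa9 lies on the minus strand of chromosome 6 (52223100 to 52231089), Hoxc9 on the plus strand of chromosome 15 (102976439 to 102985099) and Hoxd9 on the plus strand of chromosome 2 (74697727 to 74700208). The calls of Hoxa9 and Hoxc9 depended on single libraries. Without 1 library in turn the adjusted p of Hoxa9 ran from 0.0657 (without WT replicate 1) to 0.211 (without WT replicate 2), at log2 fold changes from -4.72 to -3.84. That of Hoxc9 ran from 0.05 to 2 decimals, still called, without WT replicate 1 to 0.181 without WT replicate 2, at log2 fold changes from -3.61 to -2.70.

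In the HOXA cluster the genes from Hoxa5 to Hoxa10 carried most of the counts and had separate groups, while those at its ends were near the detection limit. Hoxa10, which acts in uterine and limb patterning, was at 30.3, 23.8 and 17.3 CPM in the WT-labelled libraries and at 5.01, 1.30 and 0.481 CPM in KO-labelled ones. The groups did not overlap, yet Hoxa10 was not called (a log2 fold change of -3.39 ± 0.91, adjusted p = 0.0943 in edgeR). DESeq2 (adjusted p = 0.00135) and limma-voom (0.0282) called Hoxa10. Hoxa7 was at 6.67, 12.7 and 11.3 CPM against 3.29, 0.587 and 0 CPM. Hoxa5 was at 6.06, 5.13 and 5.27 CPM against 0.841, 0.880 and 0.0283 CPM. Both showed separate groups without passing (adjusted p = 0.380 and 0.253 in edgeR). Hoxa3, Hoxa4 and Hoxa13 stayed at or below 1.32 CPM in every library, and Hoxa4 alone of the tested HOX genes had a positive log2 fold change (0.50 ± 1.71), which became -0.071 without WT replicate 1.

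In the HOXB cluster the highest level of a gene in any library was 13.5 CPM (Hoxb7 in WT replicate 1). In each of the cluster's 7 members the KO-labelled libraries lay wholly below, where 15.7% of all genes did. None was called in edgeR or limma-voom, and DESeq2 called Hoxb3 (adjusted p = 0.0191) and Hoxb5 (0.0347). The cluster's sum was 46.4, 45.6 and 31.9 CPM against 10.02, 3.48 and 4.98 CPM. Hoxb7 was at 13.5, 11.04 and 5.05 CPM in the WT-labelled libraries and at 4.02, 0 and 3.40 CPM in KO-labelled ones. Hoxb2, an anterior gene of the cluster, was at 6.60, 12.8 and 9.75 CPM against 2.01, 1.30 and 0 CPM. Log2 fold changes in the cluster ran from -4.79 (Hoxb8) to -1.99 (Hoxb7), and 3 of the 7 had an unadjusted p under 0.05 in edgeR, against 19.1% of all genes. Hoxb4 was at 2.46, 9.99 and 6.97 CPM against 2.01, 0 and 1.56 CPM, so its groups were separate by a narrow margin. Hoxb3 was at 5.47, 2.99 and 2.66 CPM against 0.0732, 0.377 and 0 CPM. Hoxb5 was highest in WT replicate 1, at 10.5, 3.37 and 0.824 CPM against 0.0366, 0.671 and 0.0283 CPM. The standard errors of the log2 fold changes of Hoxb3 and Hoxb5 were 1.76 and 1.78. Hoxb6 was at 5.83, 4.00 and 4.17 CPM against 1.87, 0.922 and 0 CPM, with separate groups. Hoxb8 was the lowest of the cluster by CPM, at 2.00, 1.38 and 2.47 CPM against 0, 0.210 and 0 CPM.

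The HOXC cluster differed less evenly. Its sum was 49.0, 113 and 121 CPM in the WT-labelled libraries and 49.2, 11.02 and 27.4 CPM in KO-labelled ones, so WT replicate 1 and KO replicate 1 were alike. Hoxc6, which is expressed in mammary tissue, was at 5.85, 24.3 and 19.2 CPM against 5.67, 1.93 and 0.991 CPM (log2 fold change -2.52 ± 0.91, adjusted p = 0.182 in edgeR and 0.0325 in DESeq2). Hoxc8, a gene of the thoracic region and of early mammary buds, was at 7.01, 22.0 and 21.7 CPM against 18.3, 3.02 and 2.15 CPM. Its groups overlapped through those same 2 libraries. Hoxc10 was at 5.67, 7.85 and 20.2 CPM against 8.92, 1.63 and 2.89 CPM, also overlapping. Hoxc5, which shares 166 exonic bases on the same strand with Hoxc10, was at 2.87, 21.8 and 11.01 CPM against 2.52, 0.838 and 11.6 CPM. Here KO replicate 3 reached the level of the WT-labelled libraries. Hoxc4 was the most even of the cluster, at 8.06, 6.62 and 7.44 CPM against 5.74, 1.55 and 6.99 CPM (log2 fold change -0.63 ± 0.83, adjusted p = 0.754 in edgeR). Hoxd8, in the HOXD cluster, was at 1.00, 15.5 and 17.2 CPM against 1.65, 1.34 and 4.39 CPM, with WT replicate 1 below all 3 KO-labelled libraries.

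Levels of different genes were compared per kb of exon (CPM per kb). By paralog number, the highest summed levels in the WT-labelled libraries were those of group 9 (16.6 ± 3.40 CPM per kb over 3 genes) and group 10 (13.2 ± 2.38 over 2 genes), which differed by about their SD. Groups 5 to 8 lay between 8.53 and 10.8 CPM per kb. The single members of groups 11 and 13, Hoxc11 and Hoxa13, were at 0.403 and 0.116 CPM per kb. In the KO-labelled libraries group 9 was at 1.65 ± 0.97 CPM per kb, and group 8 (3.68 ± 2.94), group 10 (3.04 ± 2.75) and group 4 (2.90 ± 1.72) did not differ beyond their spread. The HOX genes with the largest shared stretches are uncertain, because no strand is marked for the reads. Hoxb3 shares 52.9% of its exonic bases with other annotated genes, mainly the opposite-strand Hoxb3os. In all, 11 members share exonic bases with another tested gene, among them Hoxb2 and Hoxa7, and Hoxc5 with Hoxc10. Hoxa10, Hoxc9 and Hoxd9 share none, and Hoxa9 shares 1.52%.

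**Figure D2:**
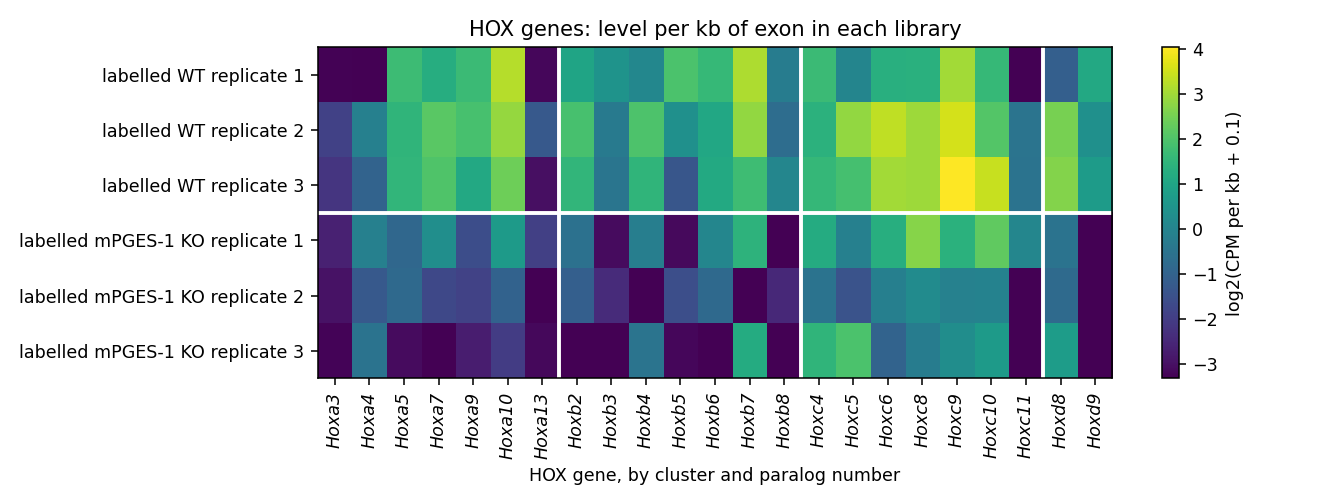
Level of 23 HOX genes in each library as log2(CPM per kb of exon + 0.1), ordered by cluster (A, B, C and D from left to right) and paralog number. The 3 upper rows are the WT-labelled libraries; Hoxc9 reaches its highest value there (12.1 CPM per kb on average), and Hoxd9 is at 0 counts in all 3 lower rows.

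Among the partners of HOX proteins in the PBX and MEIS families, 0 of 7 tested genes rose or fell in edgeR. Of all genes, edgeR called 2.76%. A negative log2 fold change was found in 3 of 4 PBX and 3 of 3 MEIS genes, against 51.6% of all genes. DESeq2 called Meis3 (14.2% of all genes called), and limma-voom called Meis3 and Pbx3 (11.9% of all genes called). Pbx3 was at 9.11, 7.92 and 8.04 CPM in the WT-labelled libraries and at 2.93, 0.0419 and 0 CPM in KO-labelled ones. Pbx3 was thus even among the WT-labelled libraries and uneven in the others, and was called in limma-voom (adjusted p = 0.0414) and not in edgeR (0.438). Pbx2 overlapped narrowly, at 5.87, 24.7 and 12.2 CPM against 5.93, 4.07 and 1.05 CPM, with WT replicate 1 again low. Pbx4 was at 1.78, 4.75 and 2.44 CPM against 2.12, 2.35 and 2.66 CPM, with overlapping groups. Meis3 was at 47.0, 104 and 84.8 CPM against 26.7, 11.2 and 2.55 CPM. The groups were separate, with a log2 fold change of -2.54 ± 0.77 (adjusted p = 0.125 in edgeR, not called; 0.00798 in DESeq2 and 0.0220 in limma-voom). Meis1, a HOX cofactor of blood and vascular tissue, was at 4.12, 10.7 and 12.1 CPM against 8.56, 7.21 and 7.16 CPM, with overlapping groups and a log2 fold change of -0.23 ± 0.68 that became 0.041 without WT replicate 3. Meis2 overlapped as well, at 8.49, 17.4 and 21.9 CPM against 19.9, 3.48 and 1.501 CPM.

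Among T-box genes, Tbx2 fell in edgeR and the others did not pass there. DESeq2 called 5 of the family, Tbx2, Tbx15, Tbx18, Tbx20 and Tbx21, and limma-voom called Tbx2 and Tbx15. Of all genes, DESeq2 called 14.2% and limma-voom 11.9%. Tbx2, a repressor of transcription that acts in heart, limb and mammary development, was at 45.8, 252 and 121 CPM in the WT-labelled libraries and at 6.99, 6.50 and 1.30 CPM in KO-labelled ones. The lowest WT-labelled library was above every other by a wide gap, and the means differed 28.3-fold (140 ± 104 against 4.93 ± 3.15 CPM, log2 fold change -4.83 ± 0.86, adjusted p = 0.0336 in edgeR). Tbx2 lies on the plus strand of chromosome 11 from 85832551 to 85841948 and shares no exonic base with another annotated gene. Its call held without WT replicate 1 (adjusted p = 0.0308) and was lost without each of the other 5 libraries in turn (0.0733 to 0.139). Its log2 fold change was -4.02, the nearest to 0, without WT replicate 2, the library with the highest level.

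Tbx3, the close paralog of Tbx2 that is needed for mammary bud formation, was at 5.56, 30.1 and 13.3 CPM against 9.58, 6.41 and 1.76 CPM. The Tbx3 groups overlapped (log2 fold change -1.47 ± 0.86, adjusted p = 0.427 in edgeR). Tbx18, which marks mural cells of vessels and embryonic mesenchyme, was at 6.95, 22.9 and 22.0 CPM against 4.61, 2.89 and 2.92 CPM. Its groups were separate without passing in edgeR (log2 fold change -2.31 ± 0.69, adjusted p = 0.119; 0.00915 in DESeq2). Tbx15, a gene of dermal and skeletal mesenchyme, went the other way, at 53.5, 31.3 and 33.4 CPM against 89.4, 67.2 and 78.9 CPM. All 3 KO-labelled libraries were higher, 1.99-fold by means, but the edgeR test did not call it (log2 fold change 0.99 ± 0.32, adjusted p = 0.139). DESeq2 (adjusted p = 0.0423) and limma-voom (0.0293) did.

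Tbx20, a cardiac gene, was at 2.37, 4.96 and 0.302 CPM against 0.0732, 0.126 and 0.255 CPM, so its groups were separate only narrowly (adjusted p = 0.211 in edgeR and 0.0477 in DESeq2). Tbx5, of heart and forelimb, overlapped at 0.0228, 0.604 and 0.275 CPM against 2.16, 1.93 and 0.255 CPM. Tbx1, Tbx4 and Tbx6 were at or under 2.498 CPM except for Tbx1 in WT replicate 3 (9.22 CPM), and their groups overlapped. Tbx21, the T-bet gene of T helper 1 and natural killer cells, reached the level needed for the edgeR test in too few libraries. DESeq2 called it higher (adjusted p = 0.0221). It had 1 count in the WT-labelled libraries and 203 in KO-labelled ones, all in replicates 2 (2.01 CPM) and 3 (4.39 CPM). The ratio of the pooled counts was 282, with a 95% exact binomial counting interval of 50.01 to 11184.5 that leaves out the spread between libraries. Lymphocyte and natural killer markers summed to 31.2, 18.3 and 59.6 CPM against 28.9, 67.8 and 351 CPM, and their part in the Tbx21 values was not tested.

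**Figure D3:**
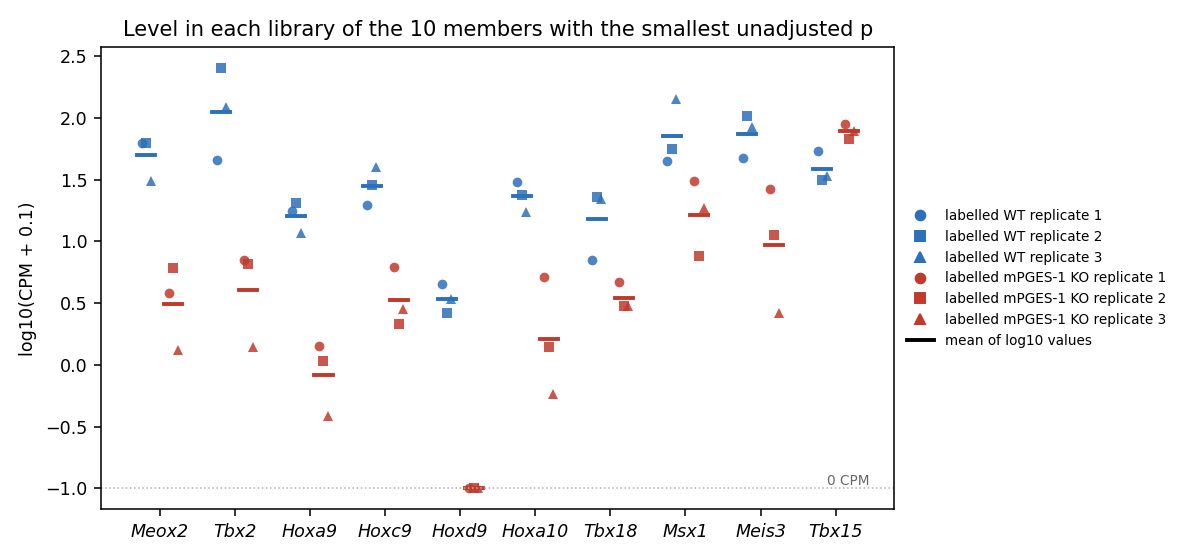
Level in each library, as log10(CPM + 0.1), of the 10 members with the smallest unadjusted p; blue symbols are the WT-labelled libraries, red those labelled mPGES-1 KO, and bars are means of the log values. In 9 genes every red symbol lies under the blue ones, and in Tbx15 every red symbol lies above.

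Meox2 had the smallest unadjusted p of the members. This homeobox gene of somite and limb mesenchyme, also known from vascular smooth muscle, was at 63.0, 62.4 and 30.8 CPM in the WT-labelled libraries and at 3.69, 5.95 and 1.22 CPM in KO-labelled ones. The groups did not overlap, and Meox2 fell 14.4-fold by means (log2 fold change -3.85 ± 0.66, adjusted p = 0.0310 in edgeR). It lies on the plus strand of chromosome 12 from 37108540 to 37179534 and shares no exonic base with another gene. The call was lost without each of the 6 libraries in turn, at adjusted p from 0.0535 (without WT replicate 1) to 0.127 (without WT replicate 2), while the log2 fold change stayed between -4.38 and -3.43. Its paralog Meox1 was at 4.58, 20.2 and 24.6 CPM against 9.40, 1.55 and 5.78 CPM, with overlapping groups (adjusted p = 0.403).

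Msx1, a target of bone morphogenetic protein signalling in mesenchyme, was at 44.8, 55.6 and 141 CPM against 30.9, 7.50 and 18.5 CPM. Its groups were separate, though not called (a log2 fold change of -2.09 ± 0.63, adjusted p = 0.125 in edgeR). DESeq2 called Msx1 (adjusted p = 0.0139). Without WT replicate 3, where it was highest, the log2 fold change was -1.41 (adjusted p = 0.338). Its paralog Msx2 had no count in WT replicate 1 and stood at 7.45 and 1.76 CPM in WT replicates 2 and 3, against 7.86, 13.0 and 0.906 CPM, overlapping (log2 fold change 1.24 ± 1.78). Dlx5, a gene of bone and facial mesenchyme, was at 14.0, 8.00 and 5.27 CPM against 2.19, 4.02 and 3.77 CPM, separate but not called (adjusted p = 0.382).

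The remaining families were low, and several of their members rested on single libraries. Lhx8, known from forebrain and tooth development, was at 8.24, 3.77 and 12.4 CPM against 3.29, 0.964 and 0 CPM (adjusted p = 0.472 in edgeR). Alx4, of limb and skull mesenchyme, was at 0.0455, 3.95 and 18.1 CPM against 7.64, 2.35 and 9.51 CPM, and its log2 fold change of -0.18 ± 1.49 became 1.70 without WT replicate 3. WT replicate 3 also held most of the RNA of Dlx4 (8.32 CPM, with 1.13 or less in the other WT-labelled libraries) and Dlx3 (4.34 CPM, with 0.604 or less). Six4 was at 0.0228, 0.780 and 2.28 CPM against 9.80, 3.69 and 0.340 CPM, with overlapping groups. Six5 overlapped too, at 3.12, 12.6 and 18.8 CPM against 4.46, 3.10 and 8.67 CPM. Six2 had 286 counts in the WT-labelled libraries, none of them in replicate 3, and 1 count in the others. The ratio of the pooled counts was 206 (exact counting interval 36.7 to 8166), an interval that leaves out the spread between libraries. It too was left out of the edgeR test, and DESeq2 called it lower (adjusted p = 0.0364).

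Among the 6 members left out of the test, because they reached the needed level in too few libraries, were Hoxa13, Tbx21, Dlx3, Six2 and Lhx5. At a level of 1 CPM or more, 38, 45 and 44 of the 55 members were detected in the WT-labelled libraries and 41, 29 and 26 in KO-labelled ones, so KO replicate 1 lay within the range of the other group. No count was found for 8, 1 and 4 members and for 5, 8 and 13 members. A count of 0 allows up to 3 counts, or 0.0683 to 0.126 CPM by library. The 13 members at 0 in KO replicate 3 included Hoxa7, Hoxb2, Hoxb3, Hoxb6, Pbx3 and Lhx8.

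Per kb of exon, Tbx2 (38.5 ± 28.7), Msx1 (26.0 ± 17.0), Meis3 (24.8 ± 9.12) and Meox2 (22.1 ± 7.81 CPM per kb, SD, n = 3) led the members in the WT-labelled libraries, and these neighbours did not differ beyond their spread. Hoxc9 (12.1 ± 4.20) and Tbx15 (10.5 ± 3.27 CPM per kb) followed. In the KO-labelled libraries, Tbx15 led at 20.95 ± 2.96 CPM per kb, apart from Msx1 (6.12 ± 3.78) and Meis3 (4.25 ± 3.85), which did not differ beyond their spread.

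**Figure D4:**
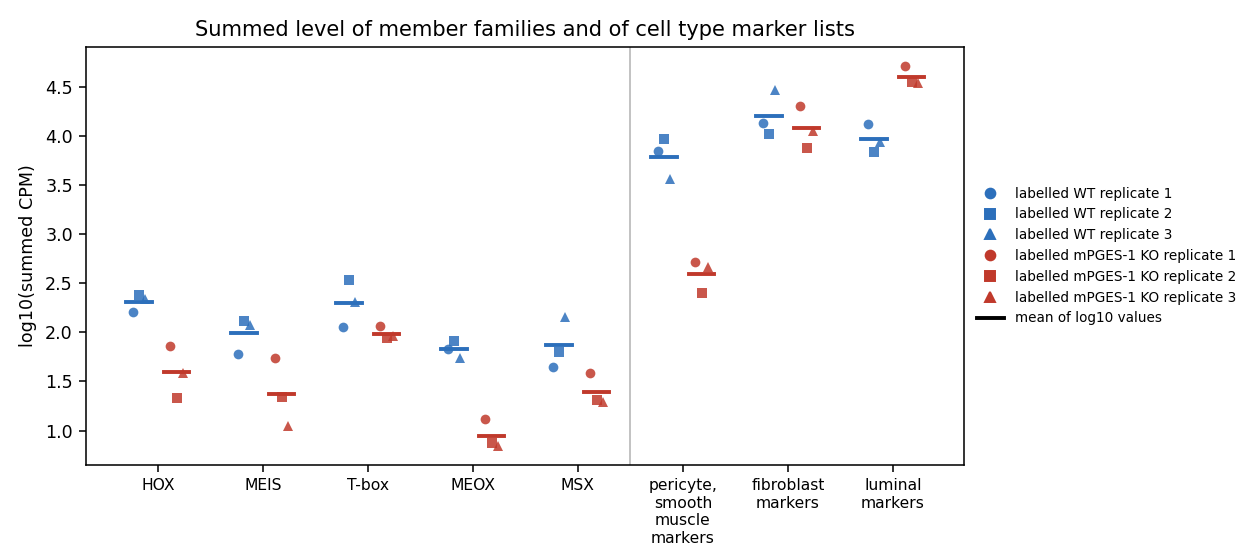
Sum of CPM over the genes of 5 member families (left) and of 3 marker lists (right) in each library, on a log10 scale; blue is labelled WT, red labelled mPGES-1 KO, bars are means of the log values. The HOX, MEIS, MEOX, MSX and pericyte sums are lower in every red library, the luminal sum is higher in every red library, and the T-box and fibroblast sums overlap.

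The 3 libraries with 250 to 523 CPM over the list of pericyte and smooth muscle markers also had the lower levels of Tbx2, Meox2, Hoxa9 and Hoxc9. These members were picked because they were called lower in the KO-labelled libraries. The match between the groups was therefore fixed in advance and does not show that they vary together. No marker of that list was at 0 in a whole group, and Rgs5, a defining pericyte gene, was at 2291, 1512 and 858 CPM against 119.6, 49.9 and 92.7 CPM. Within the WT-labelled libraries, replicate 3 had the lowest pericyte sum (3634 CPM) and the highest Hoxc9 and Msx1 (not called), while Meox2 and Hoxa9 were lowest there. Tbx2 was lowest in WT replicate 1 (45.8 CPM), where the pericyte sum was 6975 CPM. It was highest in WT replicate 2 (252 CPM), where the pericyte sum was highest too (9272 CPM). The part of the pericyte and luminal markers in these differences was not tested, and each of them differs with the genotype labels.

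The genes that work with or upon these factors showed 3 calls in edgeR among 79 tested, or 3.80%, near the 2.76% of all genes. Of 17 tested partner proteins, 1 rose, 1 fell and 15 did not pass, with a median log2 fold change of -0.15. Tgif1, a homeodomain co-repressor of TGF-beta signalling, was at 127, 97.2 and 119.6 CPM in the WT-labelled libraries and at 826, 1124 and 1172 CPM in KO-labelled ones, and rose with a log2 fold change of 3.18 ± 0.29 (adjusted p = 0.0143 in edgeR). Ssbp4, a single-stranded DNA-binding protein that works with the LDB partners of LIM homeodomain factors, was at 161, 418 and 304 CPM against 59.1, 50.8 and 64.4 CPM, and fell with a log2 fold change of -2.34 ± 0.38 (adjusted p = 0.0281). Of 27 other homeobox genes tested, Prrx1, a gene of connective tissue mesenchyme, fell from 139.5, 176 and 157 CPM to 57.8, 30.8 and 33.2 CPM (log2 fold change -1.96 ± 0.32, adjusted p = 0.0292), 0 rose and 26 did not pass, with a median of -0.57. All 3 calls depended on single libraries. Leaving out WT replicate 2 gave adjusted p of 0.0554 (Tgif1), 0.114 (Ssbp4) and 0.126 (Prrx1) in edgeR, leaving out KO replicate 2 gave 0.0881, 0.130 and 0.128, and leaving out KO replicate 3 gave 0.0630, 0.0930 and 0.101. Ssbp4 and Prrx1 were lost without WT replicate 3 too (0.0705 and 0.0746), and Ssbp4 without KO replicate 1 (0.0772).

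Of the 29 Polycomb and Trithorax group regulators, the chromatin complexes that keep HOX clusters silent or active, 0 rose and 0 fell in edgeR, 9 had an unadjusted p under 0.05 (19.1% of all genes did), and the median log2 fold change was 0.44. DESeq2 and limma-voom each called 4 of the 29, where they called 14.2% and 11.9% of all genes. Phc2, a Polycomb subunit with the highest CPM of the list, was at 155 ± 121 and 89.6 ± 47.8 CPM (adjusted p = 0.573). None of 6 tested RNAs from within the HOX clusters was called in edgeR, where 2.76% of all genes were. An unadjusted p under 0.05 was found in 2 of them (19.1% of all genes) in edgeR. A negative log2 fold change was found in 5 (51.6% of all genes), with a median of -2.45. Hotairm1, a noncoding RNA at the start of the HOXA cluster that shares 43.1% of its exonic bases with other annotated genes, was at 10.6, 19.7 and 15.8 CPM against 3.22, 0.168 and 0.651 CPM. Its groups were separate without passing (log2 fold change -3.51 ± 1.11, adjusted p = 0.138 in edgeR), and DESeq2 (0.00595) and limma-voom (0.0299) called it.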

How the data were processed

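The authors deposited a table of unnormalized counts by gene symbol for 6 libraries (3 per genotype label). Per the labels' protocols, cDNA was made by a template-switching kit, amplified by 16 PCR cycles and read as single reads of 75 cycles. FastQC 0.11.5, STAR and the mm10 build are listed in the submitters' processing notes; how reads were assigned to genes was not stated there. No strand or molecular identifier is marked.

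The test ran in R 4.3.3, edgeR 4.0.16 (filterByExpr, TMM, robust quasi-likelihood, two-sided, no covariate), with Benjamini-Hochberg adjustment over 16543 genes and calls at an adjusted p under 0.05. Standard errors are the log2 fold change over the square root of F. CPM uses TMM-scaled totals, and CPM per kb divides by the union of GENCODE M21 exons. The labels do not state separate animals, so p-values measure the spread between libraries, which may be technical. Alternatives were DESeq2 1.42.0 and its size factors, limma-voom (limma 3.58.1), 2 other filters, a replicate block and each library left out. The limma-voom fit estimated a quality weight for each library. Named were called members, the 3 highest of each family, the 10 smallest p, a short fixed list, and called and most abundant related genes; other members were named after their values were seen. The members and lists were chosen with earlier results of these data known. In the lists, markers cover 10 cell types. A few members are not reported here by name, though counts and sums over the members include them.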

Additional observations from a re-analysis of the deposited data

How the results depend on the processing

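The 4 called members were 16 with DESeq2's Wald test (14 lower and 2 higher; 2235 or 14.2% of all genes) and 9 with limma-voom (8 lower and 1 higher; 1965 or 11.9% of all genes). They were 0 in edgeR with the replicate number as a block, where 11 members had an unadjusted p under 0.05 and, of all genes, 0 passed and 2716 had such a p, and 0 to 2 without 1 library, where 0 to 568 of all genes passed. The related genes went from 3 to 16, 11 and 0 (18 with an unadjusted p under 0.05) in the same order, and to 0 to 6 without 1 library. The median log2 fold change of the tested members was -2.72 with limma-voom (all genes -0.12) and -2.68 to -1.60 without 1 library. Same-numbered libraries did not deviate together from their group means (correlations of deviations -0.0634, 0.0278 and -0.0166). With 3 libraries per group, such values cannot show that no batch or litter was shared. Hoxc9 missed the threshold with DESeq2 size factors (adjusted p = 0.0526) and without a filter (0.0512). Alx4 turned positive with limma-voom (0.17) and under the block (0.70). Without 1 library, these log2 fold changes changed sign: Alx4 (-0.73 to 1.70), Hoxa4 (-0.071 to 1.53), Hoxc11 (-7.87 to 0.25), Pbx4 (-0.58 to 0.23), Meis1 (-0.54 to 0.041), Tbx1 (-7.43 to 0.39), Tbx6 (-1.35 to 0.36), Dlx4 (-3.93 to 0.37), Phc2 (-1.24 to 0.083) and Pdgfra (-0.30 to 0.78). With 0.5 or 2 CPM as the detection level, or library size alone, the detected members stayed within 1.5 times their number. Depth limits members under about 1 CPM, where 1 count is 0.0228 to 0.0419 CPM.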

Other observations

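Tbx3os1, an RNA transcribed from the strand opposite Tbx3 and chosen after its values were seen, was at 2.19, 10.3 and 7.25 CPM in the WT-labelled libraries and at 0, 0.168 and 0.510 CPM in KO-labelled ones. Its groups did not overlap, while those of Tbx3 did. The log2 fold change was -4.83 ± 1.65 (SE) with an adjusted p = 0.164 in edgeR, so it was not called, but DESeq2 (0.00364) and limma-voom (0.0487) called it. The 2 genes share 115 exonic bases, 3.63% of those of Tbx3os1. With no strand marked for the reads, counts there cannot be assigned to either gene with certainty.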
